A study of Mus musculus with 4 samples.

Results

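The Hsp90 chaperone machinery was examined through 10 mouse genes, taken by symbol from the 32285 genes of each deposited matrix. They comprise the 4 Hsp90 paralogs (Hsp90aa1, Hsp90ab1, Hsp90b1 and Trap1), the 5 co-chaperones Ahsa1, Stip1, Cdc37, Ptges3 and Chordc1, and the transcription factor Hsf1. Each symbol matched 1 row, and the identifiers of the paralogs are ENSMUSG00000021270, ENSMUSG00000023944, ENSMUSG00000020048 and ENSMUSG00000005981. Levels were measured by droplet single-cell RNA sequencing in 4 libraries of DLA tumours, grown from Dalton's lymphoma ascites cells injected into the peritoneal cavity of Swiss albino mice. Control 1 and Control 2 came from mice without the drug, which the labels call untreated and the supplement of the study calls vehicle controls. Treated 1 and Treated 2 came from mice given SP11, an HSP90 inhibitor of the coumarin-imidazothiadiazole class, orally at 30 mg/kg for 17 days. All mice carried the same transplanted line, which is 1 tumour model. Age and sex of the mice, and how many mice stand behind a library, are not given in the sources used here. The study describes 2 independent sets of samples, and its supplement speaks of biological replicates. The p-values measure the spread between libraries, which may be partly technical.

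Hsp90 proteins are ATP-dependent chaperones that close around partly folded clients such as kinases and steroid receptors and complete their maturation. Hsp90aa1 encodes the stress-inducible cytosolic form and Hsp90ab1 the constitutive cytosolic form, Hsp90b1 encodes the paralog of the endoplasmic reticulum, and Trap1 that of mitochondria. Co-chaperones load clients and time the ATPase cycle, and Hsf1 drives transcription of heat-shock genes when free chaperone is scarce. Inhibitors of the cytosolic forms are known to release Hsf1 and to raise heat-shock transcripts in many cell lines.

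Barcodes with at least 200 genes and at most 10% mitochondrial UMIs (unique molecular identifiers, 1 per captured molecule) were kept, which left 916, 566, 1831 and 1091 barcodes in both controls and both treated libraries, in that order. Barcodes with at least 5 UMIs of Krt8 and Krt18 together were called tumour cells, and numbered 845, 528, 1256 and 582. The label lymphoma did not match their markers. A list of 14 epithelial genes outside the gate, led by Krt7, Krt19 and Epcam, summed to between 1793 and 2812 CPM (UMIs per 1000000) in the 4 tumour sums, with 10 of the 14 genes detected in each. A list of 14 lymphoid genes summed to 3.11, 2.00, 67.5 and 37.6 CPM. Immune classes were gated by marker UMIs with at most 1 keratin UMI, and held 292 B cells, 81 T cells, 328 macrophages and monocytes, 78 neutrophils and 13 dendritic-like cells. No B cell was gated in either control library, and the controls held 19 and 12 macrophages and monocytes. Of the tumour cells, 0.710%, 0.947%, 10.9% and 9.62% also reached an immune gate. Barcode sequences recurred between libraries, from 60 shared by the controls to 359 shared by the treated libraries, and 349, 220, 386 and 198 tumour cells had such a sequence. Leaving out either kind of barcode is reported in the closing section.

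Promoter sequence was matched in RefSeq (GRCm38.p6, 250 bases before to 50 after the start) for 7 of the 10 genes, all but Hsp90aa1, Hsp90ab1 and Hsf1. The stretches below are shown because Hsf1 binds inverted repeats of GAA units, the heat-shock element, while Hsp90b1 is regulated with the endoplasmic reticulum chaperones through the ERSE. Searched as GAANNTTC or TTCNNGAA, pairs of units were found in 7.86% and 8.52% of 32851 promoters. Triplets of units, GAANNTTCNNGAA or TTCNNGAANNTTC, which overlap these pairs, were found in 0.603%. The ERSE, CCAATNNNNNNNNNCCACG on either strand, was found in 0.119%. Of the 7 promoters, Chordc1 held 3 overlapping triplets around its start and 1 pair beyond the printed bases, Cdc37 held 1 pair, and Hsp90b1 held 2 ERSE matches. The promoters of Trap1, Ahsa1, Stip1 and Ptges3 held none of these letters in this window. A match describes letters and was not linked to binding in these data. Capitals mark the fixed letters of the motifs, and all stretches read 5′ to 3′ on the strand of the gene.
Chordc1, chr9:18292207-18292285, + strand, bases -60 to 19: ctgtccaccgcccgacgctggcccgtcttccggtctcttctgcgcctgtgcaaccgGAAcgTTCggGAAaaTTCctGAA
Cdc37, chr9:21150055-21150134, − strand, bases -200 to -121: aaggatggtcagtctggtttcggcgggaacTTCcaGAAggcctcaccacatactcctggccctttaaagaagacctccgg
Hsp90b1, chr10:86705525-86705664, − strand, bases -220 to -81: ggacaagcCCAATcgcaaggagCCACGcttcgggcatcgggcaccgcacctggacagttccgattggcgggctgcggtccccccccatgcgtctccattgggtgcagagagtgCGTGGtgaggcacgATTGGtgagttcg

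In tumour cells, the cytosolic paralogs were among the most abundant transcripts, and the constitutive form was above the inducible form in every library. UMIs were summed over the tumour cells of a library and scaled to counts per 1000000 UMIs of the sum (CPM), and since the 3′ end of a molecule is counted once, no length correction was applied. Hsp90ab1 was at 5689, 5441, 6235 and 5740.2 CPM in Control 1 and 2 and Treated 1 and 2 (the order of all lists of values that follow), which ranked it 18th, 23rd, 18th and 14th among all genes of the sums. The treated libraries lay above the controls, with a gap smaller than the spread within the treated group. Hsp90aa1 was at 2020.2, 2363, 2325 and 2711 CPM, and ranked between 74 and 90. The treated range overlapped that of the controls, with Control 1 lowest and Treated 2 highest. Hsp90b1 was lower and nearly level, at 648, 631, 668 and 639 CPM. Trap1 was at 47.2, 47.1, 45.2 and 51.5 CPM, the lowest of the paralogs, and its groups overlapped. Of the UMIs of all 4 paralogs, Hsp90ab1 held between 62.8% and 67.7%, Hsp90aa1 between 24.0% and 29.7%, Hsp90b1 between 6.99% and 7.71% and Trap1 between 0.488% and 0.564%.

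Among the co-chaperones, Cdc37, which brings kinases to Hsp90, was at 358, 319, 377 and 343 CPM. Ptges3, the p23 protein that stabilises the closed ATP-bound state, was at 315, 368, 292 and 336 CPM. These were the most abundant of the co-chaperones, each with overlapping groups. Stip1, which links Hsp70 and Hsp90, was at 142, 148, 161 and 160 CPM, with both treated libraries above both controls. Ahsa1, an activator of the ATPase, was at 76.3, 82.3, 76.3 and 82.4 CPM. Chordc1, a CHORD-domain protein that binds Hsp90, was at 67.1, 70.7, 65.8 and 71.3 CPM. For both, the libraries of replicate 1 were lower than those of replicate 2 in each group, and the groups covered nearly the same range. Median depth was also lower in replicate 1 of each group, at 10935, 17214, 8891.5 and 19843 UMIs per tumour cell, and its part was not tested. Hsf1 was the least abundant of the 10 genes, at 13.3, 14.6, 13.2 and 20.2 CPM, with Treated 2 apart from the other libraries.

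**Figure D1:**
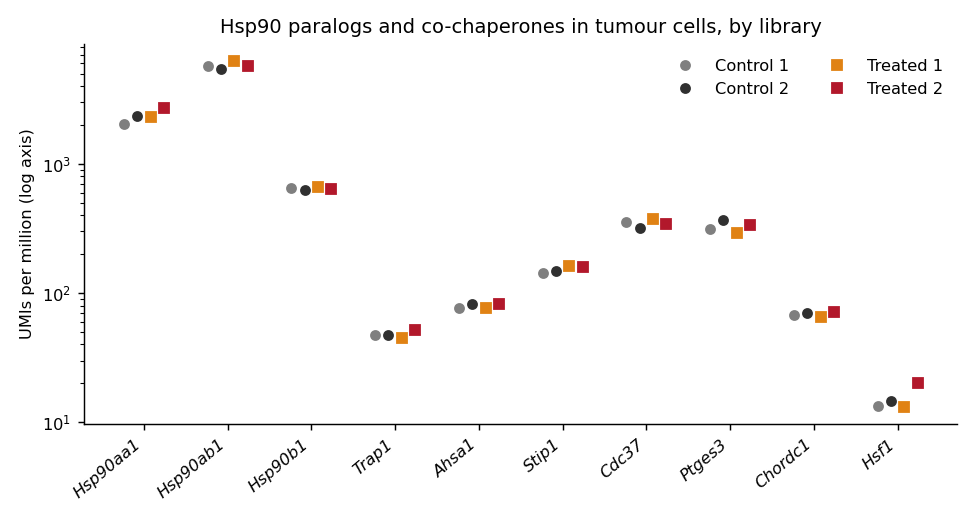
Levels of the 10 genes in tumour cells, in CPM on a log axis, with 1 point per library (circles control, squares SP11-treated). Hsp90ab1 lies highest, between 5441 and 6235, and Hsf1 lowest, between 13.2 and 20.2, and the order of the paralogs is the same in the 4 libraries.

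The comparison of SP11-treated with control tumours asks whether the transcripts of the drug's target and its partners moved with treatment. In tumour cells, none of the 10 genes passed the test (edgeR's quasi-likelihood test on the library sums, Benjamini-Hochberg adjusted p under 0.05), while 2.31% of the 11588 genes tested did, 1.81% higher (210) and 0.501% lower (58). No member had an unadjusted p under 0.05 in edgeR, and DESeq2 also called 0, with Ptges3 the only member at an unadjusted p under 0.05. The lowest adjusted p was that of Ptges3, with a log2 fold change of -0.25 (SE 0.13, 95% interval -0.52 to 0.02, adjusted p = 0.386). For Hsp90aa1 the log2 fold change was 0.07 (SE 0.14, interval -0.24 to 0.38, adjusted p = 0.867). For Hsp90ab1 it was -0.02 (SE 0.15, interval -0.35 to 0.31, adjusted p = 0.968), and with library totals alone in place of TMM scaling it turned to 0.11. That change of scaling moved the median of all genes from -0.004 to 0.124 and gave 446 higher and 60 lower calls, with no member among them. Hsf1 had the widest interval of the 10, from -0.25 to 0.50 around 0.13. The median log2 fold change of the members was -0.06, against -0.004 for all genes tested. The libraries of both groups did not overlap for Hsp90ab1 and Stip1, 2 of 10 genes, and on the same scale 44.9% of all genes tested did not overlap. Higher treated libraries, as in both members, were seen in 36.8% of all genes tested. A p that misses the threshold does not show equal levels.

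**Figure D2:**
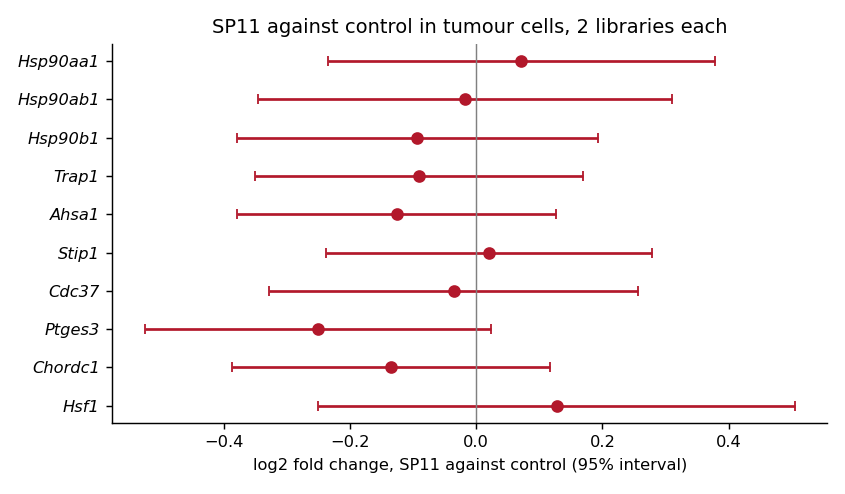
Log2 fold changes of SP11-treated against control tumour cells for the 10 genes, from edgeR with 2 libraries per group, with 95% intervals as bars. All 10 intervals include 0, and that of Ptges3 reaches from -0.52 to 0.02.

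Few other genes of the network were called. None of the 27 further Hsp90 co-chaperones was called, with a median log2 fold change of -0.04. None of the 12 tested genes of the Hsf1-responsive list of 14 was called, and their median was -0.05. Hspa1a, the stress-inducible Hsp70 on that list, had 0, 0, 2 and 0 UMIs in the tumour sums and was not tested. On the same list, Hspb1, a small heat-shock protein, was at 360.1, 512, 529 and 431 CPM, with overlapping groups. None of the 14 endoplasmic reticulum chaperones was called, with a median of -0.09. Of the 9 mitochondrial chaperones and proteases only Lonp1, the matrix protease, was called, at 56.8, 58.2, 84.3 and 99.4 CPM, a log2 fold change of 0.54 (SE 0.12, edgeR adjusted p = 0.0209). Without Control 1 its adjusted p was 0.149, without Control 2 it was 0.220 and without Treated 2 it was 0.0613, at log2 fold changes between 0.48 and 0.55. Erythroid transcripts stood at 267 and 178 CPM in the control tumour sums, against 10615 and 4739.7 in the treated ones, and their part in these values was not tested. The summed level of 12 dissociation-induced genes was 700, 622, 632 and 595 CPM.

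The balance between the cytosolic paralogs varied between libraries more than between groups. Hsp90aa1 made up 26.2%, 30.3%, 27.2% and 32.1% of the UMIs of Hsp90aa1 and Hsp90ab1, or 2.82, 2.30, 2.68 and 2.12 UMIs of Hsp90ab1 for each UMI of Hsp90aa1. The exact binomial intervals at 95%, which cover counting error only, were narrow, from 25.9% to 26.5% in Control 1 and from 31.8% to 32.4% in Treated 2. Within each group the library of replicate 2 was the higher, by more than the difference of 1.38 points between the group means (28.2% ± 2.88 and 29.6% ± 3.47, SD, n = 2, two-sided exact permutation p = 0.667, where 0.33 is the smallest that 2 against 2 allow). The difference ran from -1.08 to 3.83 points when 1 library was left out: it was -0.661 without Control 1, 3.41 without Control 2, 3.83 without Treated 1 and -1.08 without Treated 2.

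B cells and macrophages of the treated libraries held a lower Hsp90aa1 share than tumour cells. B cells had 14.3% in Treated 1 (interval 11.00% to 18.2%) and 18.3% in Treated 2 (15.04% to 22.0%). Macrophages and monocytes had 14.0% (7.87% to 22.4%), 26.9% (17.5% to 38.2%), 18.9% (15.7% to 22.4%) and 22.1% (18.6% to 25.9%). The Control 2 interval included the tumour share of that library, and that of Control 1 did not. T cells of Treated 2 had 16.3% (10.2% to 24.0%) and its neutrophils 34.0% (21.5% to 48.3%). In Treated 1 and Treated 2 the shares of B cells and of macrophages lay below that of tumour cells of the same library with intervals that did not overlap, whereas the interval of the neutrophils included the tumour share. Hsp90b1 took a larger part of the paralog UMIs in immune cells, at 18.1% and 15.6% in B cells and 18.97% and 24.2% in macrophages and monocytes of Treated 1 and Treated 2, against 7.21% and 6.99% in tumour cells.

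**Figure D3:**
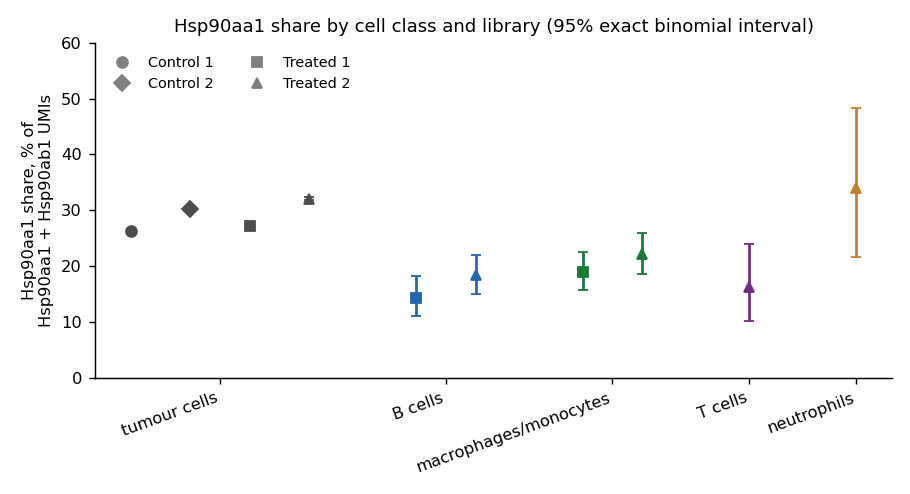
Hsp90aa1 share of the UMIs of Hsp90aa1 and Hsp90ab1 (%), by cell class and library, for sums of at least 20 cells, with 95% exact binomial intervals as bars. Tumour cells lie between 26.2% and 32.1%, B cells and macrophages of the treated libraries between 14.3% and 22.1%, and the neutrophil interval is the widest.

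Set against tumour cells in 1 fit with the library as a block, most members were lower in immune cells, and Hsp90aa1 had the lowest level relative to tumour cells in both classes tested. In B cells 7 of 10 members were lower and none higher, where 56.2% of the 6364 genes tested were called, 30.9% lower and 25.3% higher. In macrophages and monocytes 8 of 10 were lower and none higher, where 64.4% were called, 33.7% lower and 30.7% higher. The B cell and macrophage sums came from both treated libraries, since the control libraries held no sum of at least 20 such cells. T cell and neutrophil sums of Treated 2 were also in the fit, and their contrasts were not read. A gene entered the fit when a single sum reached the filter on low counts. Genes high in a single class could therefore enter through that class, and Hsf1, among the 8 lower in macrophages, entered through the T cells of Treated 2 alone. Few residual degrees of freedom remained, so the p-values rest largely on the spread shared over all genes. Hsp90aa1 was at 339 and 347 CPM in B cells of Treated 1 and Treated 2 and at 491 and 441 in macrophages. Its log2 fold change against tumour cells was -2.83 (SE 0.15, edgeR adjusted p = 2.93e-13) in B cells and -2.55 (SE 0.14, adjusted p = 5.34e-13) in macrophages. Hsp90ab1 was at 2031 and 1544 CPM in B cells and at 2104 and 1556 in macrophages, with log2 fold changes of -1.71 (SE 0.11) and -1.84 (SE 0.11). These were the smallest p-values among the members.

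The paralogs of the organelles had smaller fold changes than the cytosolic ones, a difference that was not tested. Hsp90b1 was at 527 and 354 CPM in B cells, a log2 fold change of -0.55 (SE 0.16, edgeR adjusted p = 0.00657), and this call was lost with a gate of 5 UMIs (adjusted p = 0.128), with no keratin UMI allowed (0.0653), with at least 500 genes per barcode (0.0593) and without shared barcode sequences (0.128). In macrophages it was at 617 and 643 CPM, close to the 668 and 639 of tumour cells (log2 fold change -0.16, SE 0.15, interval -0.48 to 0.15, adjusted p = 0.362). Trap1 rested on 3 to 9 UMIs per class sum and was not called in either class, with log2 fold changes of -1.02 (SE 0.43, adjusted p = 0.0505) and -0.71 (SE 0.38).

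All co-chaperones but Chordc1 were lower in both classes. Stip1 had log2 fold changes of -1.81 (SE 0.29) in B cells and -1.60 (SE 0.26) in macrophages, and Ptges3 -1.52 (SE 0.21) and -1.71 (SE 0.20). Ahsa1 had -2.06 (SE 0.42) and -1.44 (SE 0.35), on between 3 and 11 UMIs per class sum, and Cdc37 had -0.90 (SE 0.19) and -1.30 (SE 0.19). Chordc1 was at 48.5 and 56.5 CPM in B cells and was not called (log2 fold change -0.32, SE 0.31), while in macrophages it was lower, at 28.1 and 27.3 CPM (-1.43, SE 0.35, edgeR adjusted p = 0.00126). Hsf1 rested on 1 to 3 UMIs per class sum, and passed the filter on low counts only through the T cells of Treated 2, at 46.5 CPM on 3 UMIs. It was not called in B cells (-0.52, SE 0.65), and its call in macrophages (-2.09, SE 0.82, adjusted p = 0.0292) was lost with at least 500 genes per barcode (0.0729) and with no keratin UMI allowed (0.110).

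**Figure D4:**
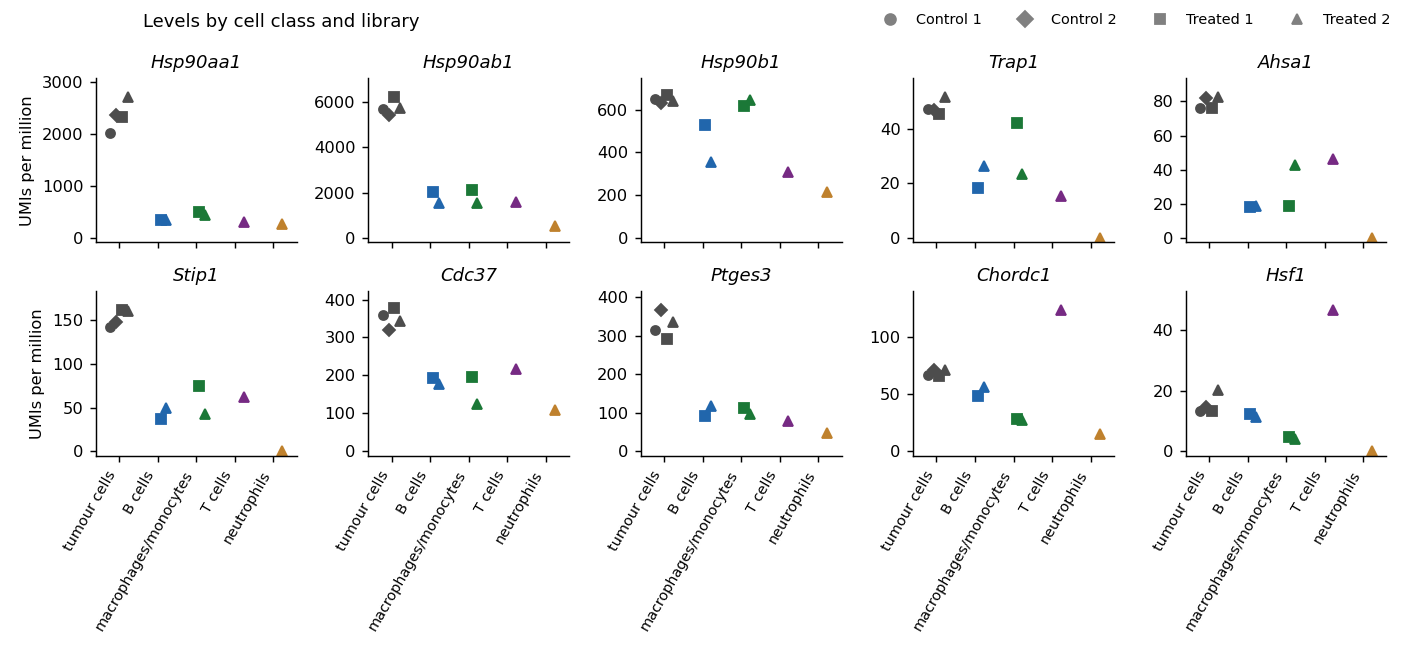
Levels of the 10 genes in CPM, by cell class (position and colour) and library (marker), for sums of at least 20 cells, each panel with its own linear axis. Hsp90aa1 and Hsp90ab1 lie far below tumour cells in each immune class, whereas Hsp90b1 in macrophages, at 617 and 643, lies close to tumour cells, at 631 to 668.

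Free RNA of tumour cells can add to immune barcodes, and its level was read from genes that immune cells should lack. The 14 epithelial genes outside the gate stood in B cells at 8.89% and 6.57% of their level in tumour cells of the same library, and in macrophages at 9.60% and 6.26%. Hsp90aa1 stood at 14.6% and 12.8% of its tumour level in B cells and at 21.1% and 16.3% in macrophages, and Hsp90ab1 at 32.6% and 26.9% and at 33.7% and 27.1%. The 5 erythroid genes stood at 72731 and 69297 CPM in B cells and at 71828 and 58255 CPM in macrophages, against 10615 and 4739.7 in tumour cells. The part of free RNA in the members' UMIs was not tested. Dissociation-induced genes were at 6082 and 7115 CPM in macrophages and at 940 and 761 in B cells of the treated libraries. Median depth was 8891.5 and 19843 UMIs per tumour cell, 881 and 1686 per B cell and 1058.5 and 1885 per macrophage, so CPM values do not give molecules per cell.

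T cells and neutrophils formed sums of at least 20 cells in Treated 2 alone and are given as values without a test. In T cells Hsp90aa1 had 310.1 and Hsp90ab1 1597 CPM, on 20 and 103 UMIs. Chordc1 and Hsf1 stood at 124 and 46.5 CPM there, on 8 and 3 UMIs. The 5 erythroid genes summed to 60437 CPM in these T cells and to 289514 CPM in the neutrophils. Neutrophils had the lowest Hsp90ab1 of the classes of that library with at least 20 cells, 537 CPM on 35 UMIs, and 276 for Hsp90aa1 on 18 UMIs. Trap1, Ahsa1, Stip1 and Hsf1 had 0 UMIs among the 65161 UMIs of the neutrophils, which allows up to 46.0 CPM (3 counts).

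Other chaperone groups were also lower in immune cells, read against 30.9% of all genes tested lower in B cells and 33.7% in macrophages. All 6 tested mitochondrial chaperones and proteases were lower in both classes, led by Hspd1, the Hsp60 chaperonin, with log2 fold changes of -3.34 (SE 0.18) in B cells and -3.07 (SE 0.17) in macrophages. Lonp1 and Hspa9 followed in B cells (-2.68 and -2.23), and Hspe1 and Hspa9 in macrophages (-2.62 and -2.02). Of 6 tested Hsf1-responsive genes, 6 were lower in B cells and 5 in macrophages. Hspb1 led both, with -3.51 (SE 0.25) and -2.57 (SE 0.21), before Hsph1 and Dnajb1 in B cells (-2.24 and -2.06) and Hspa4 and Dnajb1 in macrophages (-1.68 and -1.51).

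Of the endoplasmic reticulum chaperones, 13 were tested. In B cells 9 of them were lower and none higher, led by Pdia6, Creld2 and Hspa5 (-1.53, -1.52 and -1.33). In macrophages 5 were lower, led by Creld2, Ppib and Sdf2l1 (-1.14, -1.01 and -0.80), and 3 were higher, the disulfide isomerase subunit P4hb (1.36), the lectin chaperone Calr (1.02) and its membrane-bound relative Canx (0.46). These 8 calls of 13 in macrophages are near the 64.4% of all genes called there (33.7% lower, 30.7% higher), and the difference between the classes was not tested. Of 22 tested further co-chaperones, 13 were lower in each class. In B cells Fkbp4 had -2.24 (SE 0.22), Rpap3 was called lower on 1 and 0 UMIs, against 56.2 and 62.9 CPM in tumour cells, and Fnip2 had 0 UMIs of 430417, at least 1.86-fold lower than its 12.9 CPM in tumour cells against a limit of 3 counts over both sums. Higher in B cells were Dnajc7 (2.16, SE 0.17), a TPR protein that binds Hsp70 and Hsp90, and Cnpy3 (1.20, SE 0.35), which works with Hsp90b1 on Toll-like receptors. In macrophages Ruvbl2 and Fkbp4 were lower (-2.85 and -2.48), as was Rpap3 on 1 and 2 UMIs, and Fnip2, Fnip1 and Fkbp8 higher (2.21, 1.53 and 1.36). Rpap3 reached the filter on low counts in tumour cells. Fnip2 reached it in neither tumour nor B cells and entered the fit through another immune class. Both genes were thus tested through a class where they were higher. Medians over all genes tested were -0.15 in B cells and -0.12 in macrophages.

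Within macrophages and monocytes, SP11-treated and control sums were compared although the controls held 19 and 12 cells, fewer than the limit of 20 set for this test. Hsp90aa1 was at 399, 693, 491 and 441 CPM, on 14, 21, 105 and 113 UMIs. Hsp90ab1 was at 2449.5, 1880.1, 2104 and 1556 CPM, and Hsp90b1 at 1054, 594, 617 and 643. For all of these paralogs the groups overlapped. Of the 6 members with enough UMIs to test, 0 were called by edgeR, against 9.17% of the 1898 genes tested, 5.74% higher and 3.42% lower. Chordc1 alone had an unadjusted p under 0.05 (adjusted p = 0.182), on 3, 3, 6 and 7 UMIs, and DESeq2 called 0 of the 3 members that it gave an adjusted p. In these sums erythroid genes were at 285, 297, 71828 and 58255 CPM, epithelial genes outside the gate at 370, 198, 229 and 136 CPM, and dissociation-induced genes at 4785, 5508, 6082 and 7115 CPM, and their part in the values was not tested. From the other lists, Stub1 was called higher (log2 fold change 2.50, SE 0.86, adjusted p = 0.0457) and Hspe1 lower (-1.11, SE 0.34, adjusted p = 0.0232). The call of Stub1 was lost under 9 of 11 alternatives, among them without Control 2 (adjusted p = 0.373) and with no keratin UMI allowed (0.278), and its fitted log2 fold change was 7.76 without Control 1 and 1.60 without Control 2. The call of Hspe1 was lost under 10 of 14 alternatives. These were each of the 4 libraries left out in turn (log2 fold changes from -1.21 to -0.72, adjusted p from 0.0594 to 0.325), no keratin UMI (0.265), DESeq2 (0.215), a gate of 5 UMIs (0.0675), the replicate block (0.0713), no filter on low counts (0.425) and no shared barcode sequences (0.319).

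Among tumour cells, 3 of the 10 members differed between parts of the cell cycle, by small amounts, and the other 7 did not pass the test. Tumour cells of each library were cut into 3 equal parts by their share of UMIs on 52 G2/M genes, none of them a member, and the G2/M-high and G2/M-low parts were summed and compared with the library as a block. Hsp90aa1 was higher in the G2/M-high part in every library, at 2145 against 1876 CPM in Control 1, 2542 against 2117 in Control 2, 2436 against 2167 in Treated 1 and 2779 against 2537 in Treated 2. Hsp90ab1 was lower in the G2/M-high part in every library, at 5509 against 6032, 5404 against 5582, 6093 against 6431 and 5533 against 6029. Of the 10 members 1 was called higher and 2 lower, where 23.2% of the 10262 genes tested were called, 11.0% higher and 12.1% lower, so that the members' count is near the share of all genes. The log2 fold changes were 0.12 for Hsp90aa1 (SE 0.03, edgeR adjusted p = 0.00305), -0.17 for Hsp90ab1 (SE 0.03, adjusted p = 7.93e-06) and -0.18 for Cdc37 (SE 0.04, adjusted p = 0.00165). Cdc37 was lower in 3 of 4 libraries and at 314 against 310 CPM in Control 2.

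Scaling changed which members passed. With library totals alone, 1663 genes were higher and 804 lower, and 5 members were called. These were Hsp90aa1 (0.19), Hsp90b1 (0.10), Stip1 (0.19) and Chordc1 (0.20) as higher and Hsp90ab1 (-0.09) as lower, while Cdc37 had an adjusted p of 0.0523. Directions of Hsp90aa1, Hsp90ab1 and Cdc37 were kept. Depth also moved with the split, with medians of 9233.5, 14386, 7519 and 17422 UMIs per cell in the G2/M-low and 13241.5, 21517.5, 10587 and 22969.5 in the G2/M-high part. After thinning each cell to 5000 UMIs, 1202 genes were called in all, and the same 3 members.

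The share of Hsp90aa1 followed the opposed levels. It was 23.7%, 27.5%, 25.2% and 29.6% in the G2/M-low and 28.0%, 32.0%, 28.6% and 33.4% in the G2/M-high part, a mean difference of 3.99 points (SD 0.510, n = 4, higher in 4 of 4 libraries, exact paired permutation p = 0.125, the smallest that 4 pairs allow). The G2/M difference itself was compared between SP11-treated and control libraries by an interaction term. For 0 of 10 members did it pass in edgeR, and 1 of 10262 genes passed. At an unadjusted p under 0.05 in edgeR there were 493 genes, with Chordc1 the only member (adjusted p = 0.994). For Hsp90aa1 the interaction was -0.05 (SE 0.06) and for Hsp90ab1 0.01 (SE 0.05) on the log2 scale. The counts of the other lists stand beside the 23.2% of all genes called, and 8 of 27, 4 of 12 and 4 of 14 are near that share. Of the 9 mitochondrial genes 2 were higher and 2 lower, a larger share on few genes. Among the 27 further co-chaperones 5 were higher, led by Ppp5c (0.49) and Fnip1 (0.43), and 3 were lower, Ppid, Cacybp and Ruvbl2 (-0.34, -0.29 and -0.17). Of 12 Hsf1-responsive genes 3 were higher, Hspa4l, Hspa8 and Hsph1 (0.79, 0.25 and 0.23), and Hspb1 was lower (-0.36). Pdia4 and Canx (0.28 and 0.16) and Lonp1 and Hspa9 (0.26 and 0.16) were higher, and Pdia3 and Ppib (-0.21 and -0.09) and Hspe1 and Clpp (-0.21 and -0.19) were lower, among 14 endoplasmic reticulum and 9 mitochondrial genes.

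**Figure D5:**
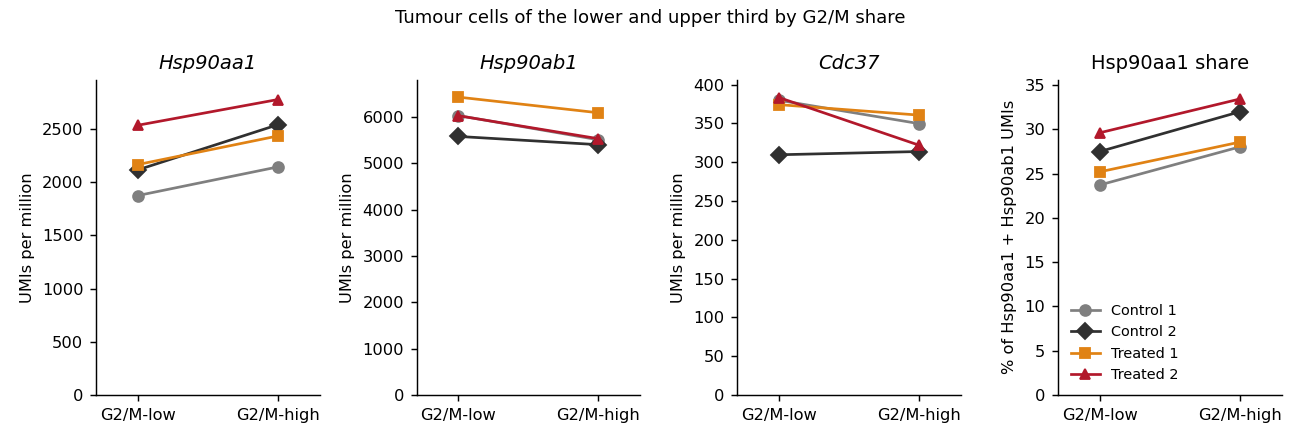
Levels of Hsp90aa1, Hsp90ab1 and Cdc37 in CPM and the Hsp90aa1 share (%), in the G2/M-low and G2/M-high part of the tumour cells, with 1 line per library. The share is higher in the G2/M-high part in all 4 libraries, by between 3.35 and 4.49 points, and Cdc37 is nearly level in Control 2.

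From cell to cell, the cytosolic paralogs had a UMI in every thinned tumour cell. After thinning to 5000 UMIs, which kept 799, 511, 1151 and 575 tumour cells, Hsp90aa1 and Hsp90ab1 had a UMI in 100% of cells in the 4 libraries. A median cell held 10, 10, 11 and 13 UMIs of Hsp90aa1 and 28, 27, 31 and 29 of Hsp90ab1. The variance of Hsp90ab1 was 1.74, 2.23, 1.76 and 1.69 times its mean and that of Hsp90aa1 1.42, 1.98, 1.77 and 1.69 times. That of Ahsa1 was between 0.971 and 1.13 times its mean, at a mean of 0.353 to 0.460 UMIs per thinned cell. At so few UMIs counting alone holds the ratio near 1, so the genes cannot be compared by it. UMIs of Hsp90b1 were found in 91.4% to 95.4% of cells, of Cdc37 in 80.0% to 82.98%, of Ptges3 in 74.4% to 82.0% and of Stip1 in 49.4% to 54.0%. Ahsa1, Chordc1 and Trap1 were found in 18.0% to 35.8%, and Hsf1 in 6.26% to 7.65% at this depth.

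Measured correlations between members over thinned tumour cells were weak, and several were higher without thinning. Pearson correlations of log(1 + UMIs) over thinned cells are descriptions, since cells of 1 library share its preparation and depth. Over the 45 pairs the mean over libraries ran from -0.03 to 0.16, with a median of 0.02. Counting error pulls correlations of genes with few UMIs towards 0. Hsf1, Trap1, Ahsa1, Chordc1 and Stip1 had means between 0.0646 and 0.809 UMIs per thinned cell. Values near 0 in their pairs therefore do not show a lack of co-variation. In thinned cells only pairs of the 3 most abundant paralogs exceeded 0.1, and none did in cells of at least 8000 UMIs. There Hsp90ab1 with Hsp90b1 was at 0.08 in place of 0.16 and Hsp90aa1 with Hsp90b1 at 0.03 in place of 0.10. Hsp90aa1 and Hsp90ab1 correlated at 0.15, 0.38, 0.07 and 0.03. The value of Control 2 fell to -0.003 without its shallow cells. These 46 cells, under 8000 UMIs, held a mean of 12.5 UMIs of Hsp90ab1 and 5.22 of Hsp90aa1 per 5000, against 27.9 and 11.6 in its deeper cells. In cells of at least 8000 UMIs, a limit chosen after seeing the data, the correlation ran from -0.003 to 0.11 over the libraries, with a mean of 0.06. Such a gap was not seen in Control 1, where 115 shallow cells held 27.8 UMIs of Hsp90ab1 and deeper cells 28.4, nor in Treated 1, with 31.0 in 382 shallow cells and 31.4. Treated 2 had 2 such cells. Without thinning, on counts scaled to 10000 UMIs per cell, Hsp90aa1 with Hsp90ab1 had a mean of 0.30 (0.12 to 0.60 over libraries). Hsp90ab1 with Hsp90b1 was then at 0.29 and Hsp90aa1 with Hsp90b1 at 0.21. Pairs with co-chaperones also exceeded 0.1, such as Hsp90aa1 with Ptges3 (0.19) and with Stip1 (0.16), while Hsp90aa1 with Hsf1 stayed at 0.02. The part of depth in these values was not tested.

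Among 1236 genes with enough UMIs, those most like Hsp90ab1 over tumour cells were Npm1 (mean correlation 0.24), Hspd1 (0.23), Bzw1 (0.18), Actb (0.17) and Hsp90aa1 (0.16). For Hsp90aa1 they were Rpl12 (0.19), Rps12 (0.17), Rps15 (0.17), Hspd1 (0.17) and mt-Co1 (0.16). For Hsp90b1 they were Hsp90ab1 (0.16), the endoplasmic reticulum Hsp70 gene Hspa5 (0.15), Gm42418 (0.11), Actb (0.11) and Hsp90aa1 (0.10). In cells of at least 8000 UMIs the means with Hsp90ab1 were 0.13, 0.11, 0.10, 0.06 and 0.06, in the same order. Those with Hsp90aa1 were 0.16, 0.14, 0.17, 0.09 and 0.18, and those with Hsp90b1 were 0.08, 0.10, 0.05, 0.04 and 0.03.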

How the data were processed

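The authors deposited, for each of 4 libraries, raw UMI counts per gene and barcode, made with Cell Ranger 7.1.0 per the file headers, with no normalization. The labels name mm10, whereas the text of the study names hg38, and the genes are those of mouse. Tumour barcodes held 9646559, 9477943, 12287495 and 12130122 UMIs in Control 1 and 2 and Treated 1 and 2. The genes and lists were chosen with earlier results of these data known. Counts were summed per library and class. Sums were tested with edgeR 4.0.16 in R 4.3.3 (TMM, filterByExpr, quasi-likelihood, Benjamini-Hochberg at 0.05), with DESeq2 1.42.0 as an alternative. Simulated data were run through edgeR for SP11 in tumour cells and in macrophages, B cells against tumour cells, and the G2/M parts. The interaction, macrophages against tumour cells and DESeq2 were not simulated. The study tested cells with a Wilcoxon test, but cells of 1 library are not replicates. A barcode reaching several immune gates went to the class with the most marker UMIs relative to its limit (3, or 10 for neutrophils). No doublet caller was run, and barcodes in both kinds of gate were left out as an alternative. Shares have exact Clopper-Pearson intervals (scipy 1.17.1). Named genes are the 10 members and, per list, comparison and direction, up to 3 called genes with the largest change, plus Hspa1a and, in tumour cells, Hspb1, chosen after their values were seen. One gene that this rule names is not reported here. Correlations used genes with a mean of at least 0.5 UMIs per thinned cell. Other alternatives were filters, gates, thinning, scaling, the replicate block and each library left out.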

Additional observations from a re-analysis of the deposited data

How the results depend on the processing

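No member was called for SP11 in tumour cells or in macrophages under any alternative run. Counts over all genes moved. In tumour cells 268 genes were called, against 110 with thinned cells, 134 with DESeq2, 132 without barcodes in both gates, 506 with library totals, and 78 to 425 with 1 library left out (78 without Control 2, 425 without Treated 2). In macrophages 174 were called, against 59 with DESeq2, 110 with at least 500 genes, 88 with no keratin UMI and 43 to 94 with 1 library left out. With the replicate number as a block, 1038 genes were called in tumour cells and 109 in macrophages, and no member. Deviations of same-numbered libraries correlated at 0.127 and 0.0284, and the labels do not say that a number marks a shared animal or day, so the block stands as an alternative only. Fold changes in tumour cells that turned sign, none called, were with library totals Hsp90ab1 (0.11), Hsp90b1 (0.0320), Trap1 (0.0391), Ahsa1 (0.00232) and Cdc37 (0.0889), with thinned cells Hsp90ab1 (0.00442), Trap1 (0.0682) and Hsf1 (-0.15), and without barcodes in both gates Hsp90ab1 (0.000826). With 1 library left out, the log2 fold change ran from -0.0197 to 0.166 for Hsp90aa1, -0.134 to 0.0907 for Hsp90ab1, -0.0371 to 0.0790 for Stip1, -0.160 to 0.0798 for Cdc37 and -0.149 to 0.360 for Hsf1. The difference in Hsp90aa1 share also turned when 1 library was left out (-1.08 to 3.83 points). Chordc1 in B cells was at 0.10 without shared barcode sequences. Of 87 values of members in B cells under alternatives, 4 lost a call and 3 were called where the main fit had no call. For G2/M, 2378 genes and 3 members were called, against 1202 genes with thinned cells and 5 members with library totals. Values that turned sign, none called, were Ahsa1 without shared barcode sequences (0.0187), Ptges3 with thinned cells (-0.000960) and with a split at the median (-0.0550) and Hsf1 with thinned cells (-0.42), and with 1 library left out Ptges3 ran from -0.0609 to 0.0271 and Hsf1 from -0.00758 to 0.202. Causes were not tested. Immune classes could not be tested without either treated library, since no residual degree of freedom remained. With 2 libraries per group, and 0 to 11 UMIs of Ahsa1, Trap1 and Hsf1 in immune sums, small changes are not detectable at this depth.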
